A study of Rattus norvegicus with 6 samples.

Results

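Genes that respond to glucocorticoids were followed in the spinal cord of rats with neuropathic pain. The 10 genes were Fkbp5, Tsc22d3, Sgk1, Zbtb16, Klf9, Klf15, Pdk4, Hif3a, Nr3c1 and Sult1a1, of 22050 genes in the deposited table, and each was found as 1 row by its gene symbol. They were chosen by name with earlier results of these same libraries known, so the difference of these genes between the groups is given as a description and is not a test. The samples were 3 Sham libraries, of rats that had sham surgery, and 3 SNI-NP libraries, of rats that had spared nerve injury. In this model of neuropathic pain the sural branch of the sciatic nerve is left intact while other branches are damaged. Whether each library came from 1 rat is not given in the sources used here. All the rats were male Sprague-Dawley rats aged 8 to 10 weeks, kept under a regulated light and dark cycle. No transgene, vector or drug treatment is named for the rats of these 6 libraries. Bulk RNA of spinal cord tissue was sequenced, with the segment not given in the sources used here, so fewer cells of a type and less RNA per cell cannot be told apart.

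Glucocorticoids such as corticosterone, the main one in rats, are released by the adrenal cortex under control of the hypothalamus and pituitary. They bind the glucocorticoid receptor, which is held in the cytoplasm by the chaperone Hsp90 and its partners, and the bound receptor moves to the nucleus and binds DNA. It raises the transcription of genes such as Fkbp5, which feeds back on the receptor, and lowers that of many genes of inflammation. Plasma glucocorticoid follows a daily rhythm and rises in stress, and in the central nervous system the receptor is present in neurons and in glia.

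CPM is the count over a scaled library total, times a constant that is the same for every library. The scaled total is the total of the tested genes times a normalization factor (TMM) of that library. This factor ran from 0.958 in SNI-NP replicate 1 to 1.04 in Sham replicate 2. The 6 libraries held 16670760 to 18151156 estimated counts, so that a count of 0 allowed up to 0.165 to 0.18 CPM, here with the unscaled total. That limit reflects counting error alone. Markers of astrocytes, oligodendrocytes, microglia and neurons were present in every library. The highest sum was that of 4 Schwann cell markers, the cells of peripheral myelin, with 74452 to 89949 CPM in Sham and 85743 to 113822 CPM in SNI-NP (1 of 4 higher at an unadjusted p below 0.05 by edgeR), above 30090 to 41014 CPM for 8 oligodendrocyte markers. The 5 skeletal muscle markers summed to 423 CPM in SNI-NP replicate 3, 169 CPM in SNI-NP replicate 1 and 10.2 to 72.1 CPM in the other libraries (1 of 5 higher). The summed level of 9 neuron markers was 1953 CPM in SNI-NP replicate 1 and 3978 to 6251 CPM in the other 5 libraries. Of these 9 markers 3 were lower and 0 higher in SNI-NP at an unadjusted p below 0.05 by edgeR. Across all tested genes 5.94% were lower and 4.91% higher in this way. The sum of 9 dorsal root ganglion neuron markers was 212 CPM in SNI-NP replicate 1 and 654 to 1865 CPM elsewhere, with 0 lower and 0 higher. SNI-NP replicate 1 therefore stood apart in both sums. Without it the log2 fold changes of the 10 genes had a median of -0.42, from -1.62 to -0.10, against -0.32 with all libraries. The 5 blood markers summed to 967 to 2357 CPM in Sham and 2112 to 5083 CPM in SNI-NP, with 4 of 5 higher at an unadjusted p below 0.05 by edgeR's quasi-likelihood test and none at 0 in a library. The part of neurons, peripheral nerve, muscle and blood in the results was not tested. The labels give no cage, batch or time of day for the rats, and p-values measure the spread between these 6 samples.

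The order of the genes in Sham tissue was read from FPKM, the deposited value corrected for gene length and library total, since levels of different genes compare only per length. Tsc22d3, which encodes the anti-inflammatory leucine zipper protein GILZ, stood first with 119 FPKM ± 24.3 (SD, n = 3 here and below), and Sult1a1, a sulfotransferase of phenols, followed with 70.5 ± 22.4 FPKM. The Sham ranges of these 2 genes overlapped. Sgk1, a kinase that acts on ion channels and transporters, had 40.2 ± 13.6 FPKM and overlapped with neither neighbour in the order. Nr3c1, the glucocorticoid receptor itself, had 14.5 ± 3.10 FPKM and Klf15, a transcription factor of the Krüppel-like family, 11.9 ± 2.23 FPKM, with overlapping ranges. Klf15 also overlapped with Fkbp5, a co-chaperone that lowers the affinity of the receptor for its hormone, at 9.51 ± 1.35 FPKM. Klf9, a second Krüppel-like factor, and Pdk4, which inhibits pyruvate dehydrogenase, lay lower with 6.06 ± 1.06 and 5.88 ± 1.47 FPKM and overlapping ranges. Zbtb16, a zinc finger transcription factor also known as PLZF, had 1.94 ± 0.661 FPKM, and Hif3a, a subunit of the hypoxia-inducible factors, 0.467 ± 0.168 FPKM, each apart from the gene above it. The receptor gene and its co-chaperone Fkbp5 thus lay in the middle of the order, on either side of Klf15.

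The DNA just upstream of these genes was read from RefSeq (build GRCr8, which is not the build of the deposited table), in windows of 250 bases that end at an annotated start. Windows were found for 9 of the 10 genes, 15 windows in all, and none for Zbtb16. The full palindrome bound by the receptor, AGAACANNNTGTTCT, was in 0 of the 15 windows and in 0.012% of 33469 rat windows of the same length. A single arm of it, AGAACA, was searched on both strands and overlaps with the palindrome by design. It was in the Sult1a1 window alone, 89 bases before the start, and in 17.5% of all windows. CACGTG, the E-box read by clock and other factors, was only in the Klf15 window, 101 bases before the start, and in 5.59% of all windows. GGGCGG, the GC box bound by Sp and Krüppel-like factors, had 19 matches in 9 windows of 6 genes, and 30.5% of all windows held it. Windows of 4 genes are printed to show what stands next to the starts of the most studied receptor targets, Fkbp5 and Tsc22d3, and where the 2 rarer motifs lay. Capitals mark a match to one of these short motifs on either strand, and each sequence runs 5′ to 3′ toward the start of the gene. The Fkbp5 window is chr20:6543556-6543805, minus strand, the second of 3 listed for Tsc22d3 is chrX:109065431-109065680, minus strand, that of Klf15 is chr4:124522765-124523014, plus strand, and that of Sult1a1 is chr1:190706113-190706362, minus strand.
Fkbp5: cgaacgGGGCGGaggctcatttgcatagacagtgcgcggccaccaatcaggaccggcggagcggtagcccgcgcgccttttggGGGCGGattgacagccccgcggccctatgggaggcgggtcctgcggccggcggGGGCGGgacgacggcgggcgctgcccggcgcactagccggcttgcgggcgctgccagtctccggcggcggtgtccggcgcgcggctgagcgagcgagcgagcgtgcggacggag
Tsc22d3: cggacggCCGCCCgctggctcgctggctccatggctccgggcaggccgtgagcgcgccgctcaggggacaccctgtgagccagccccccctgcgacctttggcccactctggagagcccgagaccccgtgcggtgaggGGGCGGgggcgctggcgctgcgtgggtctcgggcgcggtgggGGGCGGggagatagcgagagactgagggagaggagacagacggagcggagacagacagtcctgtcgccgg
Klf15: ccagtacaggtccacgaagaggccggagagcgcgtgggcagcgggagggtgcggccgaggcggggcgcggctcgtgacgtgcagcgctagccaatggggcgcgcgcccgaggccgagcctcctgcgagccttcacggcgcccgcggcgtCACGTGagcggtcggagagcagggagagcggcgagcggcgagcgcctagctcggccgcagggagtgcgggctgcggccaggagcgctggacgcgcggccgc
Sult1a1: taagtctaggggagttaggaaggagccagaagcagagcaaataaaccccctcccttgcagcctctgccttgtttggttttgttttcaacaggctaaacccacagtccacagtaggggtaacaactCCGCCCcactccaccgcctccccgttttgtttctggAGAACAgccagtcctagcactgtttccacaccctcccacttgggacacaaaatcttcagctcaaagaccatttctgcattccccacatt
The Fkbp5 window and the printed Tsc22d3 window each held 3 GC boxes and no arm of the palindrome. The other 2 Tsc22d3 windows, which are not printed, held 1 and 0 GC boxes and no arm. Counts per gene do not show which of the 3 starts was in use, and the printed window held the most GC boxes. A match is a description of letters, and receptor sites outside these windows were not searched here.

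All 10 genes had a lower fitted level in SNI-NP than in Sham. The median log2 fold change of SNI-NP over Sham, by edgeR's quasi-likelihood test, was -0.32 over the 10 genes. Leaving out Sham replicate 2 moved that median to -0.20, with 7 of 10 genes negative, and leaving out SNI-NP replicate 2 to -0.26, with 8 of 10 negative. Over all 14426 tested genes the median was 0.01, and 49.1% of the changes were negative. Zbtb16 and Tsc22d3 were the 2 genes with an unadjusted p below 0.05, both lower, and 0 of 10 were higher with such a p. Across all tested genes 5.94% were called lower and 4.91% higher in this way. In both of these genes every SNI-NP library lay below every Sham library, an order shown by 8.15% of all tested genes, while 10.4% showed the opposite order. After adjustment over all tested genes edgeR called 0 of the 10 genes and 0 of all genes (0%). The Wald test of DESeq2 called 1 of the 10, Zbtb16, at an adjusted p below 0.05 and 2 at an unadjusted p, against 1.48% and 11.7% of all genes with such a value. Since the genes were chosen with this comparison known, these shares are printed beside the counts and nothing is read from them.

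**Figure D1:**
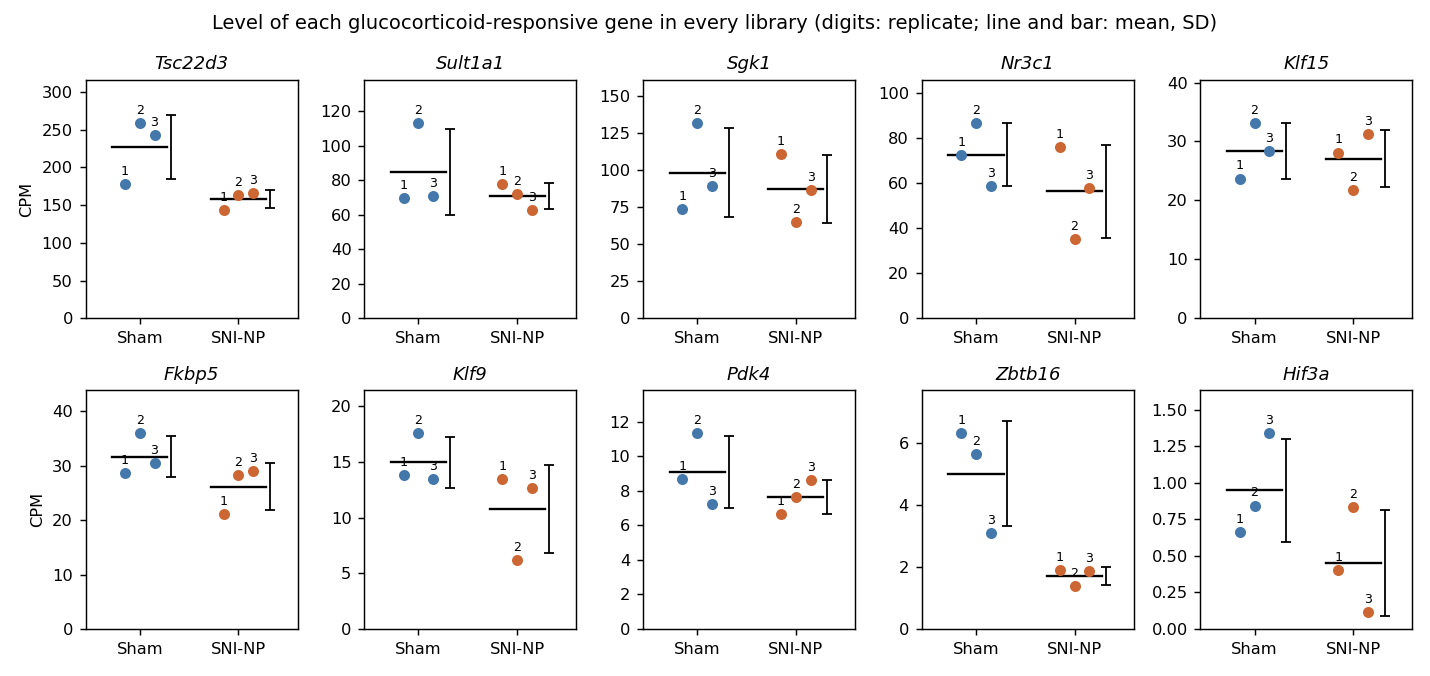
Level of each of the 10 genes in CPM (vertical axes, from 0) in the 3 Sham libraries (blue) and 3 SNI-NP libraries (orange); digits give the replicate, the line is the group mean and the bar 1 SD. Only for Tsc22d3 and Zbtb16 do all SNI-NP points lie below all Sham points, and Sham replicate 2 is the highest point in 8 of 10 panels.

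Nr3c1, the receptor, was at 72.5, 86.8 and 58.7 CPM in Sham and at 76.0, 35.2 and 57.6 CPM in SNI-NP. The groups overlapped, and SNI-NP replicate 2 alone lay well below the rest. The fitted log2 fold change was -0.37 (SE 0.28, 95% interval -1.01 to 0.28). Leaving out SNI-NP replicate 1 gave -0.65 and leaving out SNI-NP replicate 2 gave -0.12, so that its size rested on which of these libraries was kept. With length offsets, a correction for gene length, it was -0.25 with all 6 libraries. A second row of the table, AABR07031756.1, which the table describes as a glucocorticoid receptor, had 10.4, 13.0 and 7.28 CPM in Sham and 10.9, 5.50 and 7.59 CPM in SNI-NP, with Sham replicate 2 highest and SNI-NP replicate 2 lowest as for Nr3c1. Whether its reads come from the same gene is not given in the sources used here. Nr3c2, the mineralocorticoid receptor, which binds the same hormone, was nearly level at 11.8 ± 1.0 CPM in Sham and 11.6 ± 0.516 CPM in SNI-NP, with an edgeR log2 fold change of -0.02 (SE 0.14).

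Of the genes that feed back on the receptor or on inflammation, Tsc22d3 showed the clearest order. It was at 178, 259 and 242 CPM in Sham and at 144, 164 and 166 CPM in SNI-NP. The highest SNI-NP library thus lay below the lowest Sham library, and the means were 226.7 ± 42.7 and 157.8 ± 12.2 CPM. The log2 fold change was -0.52 (SE 0.16, 95% interval -0.89 to -0.16), a level 1.44 times as high in Sham. With any 1 of the libraries omitted it ranged from -0.69 to -0.41 and had an unadjusted p below 0.05 by edgeR in 6 of 6 such fits. These fits share libraries, and the gene was chosen with the comparison known, so nothing is read from that count. Fkbp5 was at 28.6, 35.9 and 30.5 CPM in Sham and at 21.2, 28.3 and 29.0 CPM in SNI-NP. Only SNI-NP replicate 1 stood clearly below Sham, since the other 2 SNI-NP libraries lay next to the lowest Sham library. Its log2 fold change of -0.28 had a 95% interval of -0.65 to 0.10 (SE 0.16), and it was -0.14 without SNI-NP replicate 1. The family members Tsc22d1 and Tsc22d2, not counted among the 10 and named after their values were seen, had log2 fold changes of 0.02 (SE 0.12) and -0.34 (SE 0.17).

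Zbtb16, whose transcription is strongly induced by glucocorticoids in many cell types, had the largest relative difference of the 10. Its level was 6.30, 5.63 and 3.08 CPM in Sham and 1.90, 1.39 and 1.85 CPM in SNI-NP. These levels rested on 105, 100 and 53 counts against 33, 25 and 32 counts. The 3 SNI-NP libraries were close together, while Sham replicate 3 lay between them and the other Sham libraries. The log2 fold change was -1.54 (SE 0.33, 95% interval -2.32 to -0.76), and the level was 2.92 times as high in Sham. Without 1 library it ranged from -1.82 to -1.37, and the unadjusted p by edgeR was below 0.05 in 6 of 6 fits. As for Tsc22d3, nothing is read from that count. At FPKM near 1 the scale mattered, and the difference of mean log2(FPKM + 1) was -0.82.

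The Krüppel-like factors differed from each other in which libraries were low. Klf9 was at 13.9, 17.6 and 13.4 CPM in Sham and at 13.5, 6.22 and 12.6 CPM in SNI-NP, so that 1 library, SNI-NP replicate 2, carried most of the difference. Its log2 fold change was -0.47 (SE 0.29, 95% interval -1.16 to 0.21), and -0.19 without that library. Klf15 was at 23.7, 33.2 and 28.3 CPM in Sham and at 28.1, 21.8 and 31.2 CPM in SNI-NP, with groups that overlapped over nearly their whole ranges. Its log2 fold change of -0.07 (SE 0.18) had a 95% interval of -0.50 to 0.35, which holds changes in either direction. The direction turned, to 0.06, on leaving out Sham replicate 2 or SNI-NP replicate 2. The study also followed Jmjd1c, a histone demethylase gene, and Socs3, an inhibitor of cytokine signalling, beside Klf15. Jmjd1c was at 43.0, 46.9 and 40.3 CPM in Sham and at 38.1, 16.7 and 26.1 CPM in SNI-NP, all 3 below Sham, with an edgeR log2 fold change of -0.69 (SE 0.27, adjusted p = 0.444). Socs3 was at 2.46, 2.99 and 3.90 CPM in Sham and at 2.53, 3.50 and 3.42 CPM in SNI-NP, with a log2 fold change of 0.02 (SE 0.28).

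The enzymes and the kinase lay within the Sham range for most libraries. Sgk1 was at 73.5, 132 and 88.9 CPM in Sham and at 111, 64.6 and 86.1 CPM in SNI-NP. The highest and second highest libraries thus came from different groups, and the log2 fold change was -0.17 (SE 0.26, 95% interval -0.78 to 0.44). Omitting Sham replicate 2 gave 0.10, and omitting SNI-NP replicate 2 gave 0.01. The value was -0.38 with SNI-NP replicate 1 omitted and -0.37 with Sham replicate 1 omitted. Sult1a1 was at 69.5, 113 and 71.1 CPM in Sham and at 77.6, 72.3 and 63.0 CPM in SNI-NP. Sham replicate 2 stood alone at the top, and without it the log2 fold change of -0.26 (SE 0.20, 95% interval -0.73 to 0.22) became 0.02. Pdk4 was at 8.70, 11.3 and 7.22 CPM in Sham and at 6.67, 7.66 and 8.64 CPM in SNI-NP, with overlapping groups and a log2 fold change of -0.25 (SE 0.22, 95% interval -0.76 to 0.26). Without Sham replicate 2 that of Pdk4 was -0.05, and without SNI-NP replicate 1 it was -0.16.

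Hif3a was the scarcest of the 10, with 11, 15 and 23 counts in Sham and 7, 15 and 2 counts in SNI-NP. The groups overlapped, since SNI-NP replicate 2 had as many counts as Sham replicate 2. Its log2 fold change of -1.05 came with an SE of 0.66 and a 95% interval of -2.59 to 0.48. Its value was -1.84 with SNI-NP replicate 2 left out and -0.64 with SNI-NP replicate 3 left out, and on the scale of log2(FPKM + 1) the difference was -0.27.

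**Figure D2:**
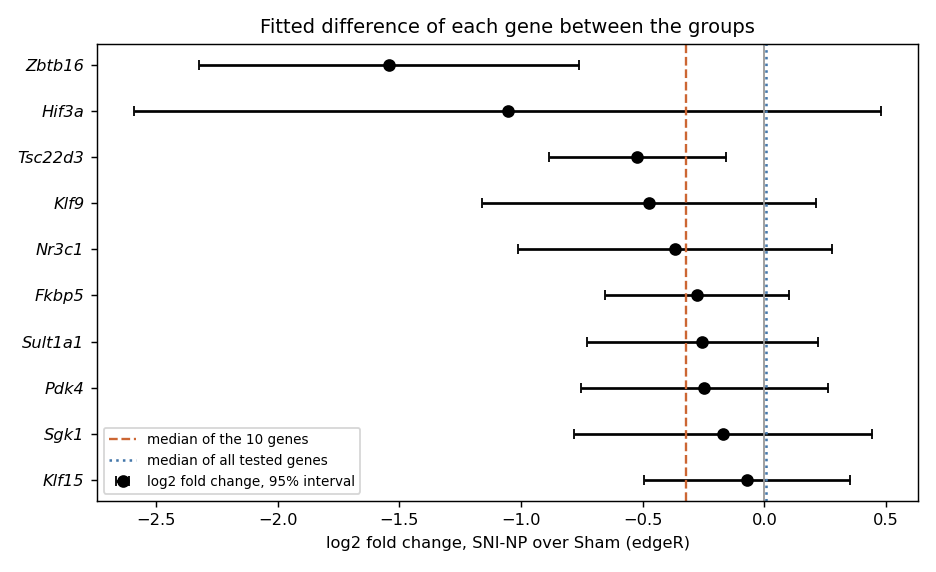
Fitted log2 fold change of SNI-NP over Sham (horizontal axis) with its 95% interval for each gene, with the median of the 10 genes (dashed) and of all 14426 tested genes (dotted). The 10 points lie below 0, and the intervals of Zbtb16 and Tsc22d3 alone end below 0.

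The libraries within a group differed in a way that many of the 10 genes shared. Sham replicate 2 had the highest CPM of the 6 libraries in 8 of 10 genes, all but Zbtb16 and Hif3a. Over all tested genes its share was 18.0%. The median deviation of the 10 genes from the Sham mean of log2 CPM was 0.24 in that library, with -0.19 and -0.12 in Sham replicates 1 and 3. In SNI-NP replicates 1, 2 and 3 it was -0.27, -0.41 and -0.27, and over all genes it lay between 0.00 and 0.02 in each of the 6 libraries. The lowest library was SNI-NP replicate 2 in 5 genes, SNI-NP replicate 1 in 3 genes and SNI-NP replicate 3 in 2 genes, beside 20.1%, 17.1% and 9.81% of all tested genes. No Sham library was the lowest for any of the 10, beside 17.6%, 21.8% and 13.5% of all tested genes for Sham replicates 1, 2 and 3. Sham replicates 1 and 3 were each the highest for 1 of the 10, and no SNI-NP library was the highest for any. The genes were chosen with the comparison of the groups known, so nothing is read from the shares for the highest or the lowest library. Sham replicate 2 also had the lowest summed level of 8 astrocyte markers (4296 CPM, against 5697 and 6671 CPM in the other Sham libraries and 4457 to 5825 CPM in SNI-NP, with 1 of 8 lower and 0 higher at an unadjusted p below 0.05 and none at 0). The part of that in the levels of the 10 genes was not tested.

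**Figure D3:**
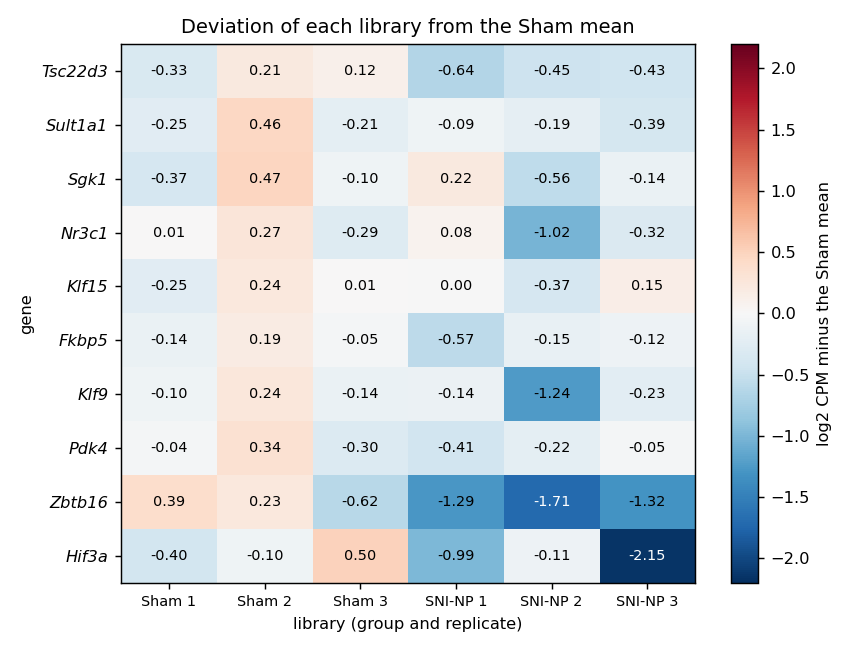
Deviation of log2 CPM (prior count of 2) from the Sham mean for each gene (rows, in order of Sham FPKM) in each library (columns), with red above and blue below that mean. The column of Sham replicate 2 is above the mean in 9 of 10 genes, while SNI-NP replicate 2 is below it in 10 of 10 genes.

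The 10 genes did not vary as 1 block. Over the 6 libraries, which share their depth and their grouping, the Pearson r of log2 CPM was 0.95 for Klf9 and Nr3c1, 0.85 for Sgk1 and Klf15 and 0.79 for Sgk1 and Nr3c1. Fkbp5 went with Tsc22d3 (r = 0.84) and with Pdk4 (r = 0.81). Nr3c1, Klf9, Sgk1 and Klf15 were taken as a first set and Fkbp5, Tsc22d3 and Pdk4 as a second, picked after their values were seen. Within the first, r ran from 0.65 to 0.95, and within the second from 0.58 to 0.84. Over the 12 pairs between them it ran from 0.06 to 0.47 (median 0.38). The sets were picked by these values, so this gap is no separate result. Zbtb16, Sult1a1 and Hif3a were left out of both sets. For Zbtb16 r ran from 0.23 to 0.71 with the first set and from 0.53 to 0.63 with the second. For Sult1a1 these ranges were 0.44 to 0.75 and 0.45 to 0.64, and for Hif3a -0.30 to -0.03 and -0.0018 to 0.61. The lowest value of any pair was -0.30, for Klf15 and Hif3a. The receptor gene was low in SNI-NP replicate 2, whereas Fkbp5 and Tsc22d3 were lowest in SNI-NP replicate 1. Among 11094 genes outside the lists with a mean of at least 5 CPM, those most like Nr3c1 were Rgs5, Galnt1, Kat6a, Ankrd28 and Atp7a, with r from 0.999 to 0.994. For Fkbp5 they were Kif16b, Hsdl2, Msantd4, Rmnd1 and Rpf2 (r from 0.993 to 0.982), and for Klf15 they were Rpe, Ptprj, Lrrfip1, Ap3b1 and Lrrc8b (r from 0.988 to 0.973). With 6 libraries and that many genes searched, such values are descriptions of likeness.

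**Figure D4:**
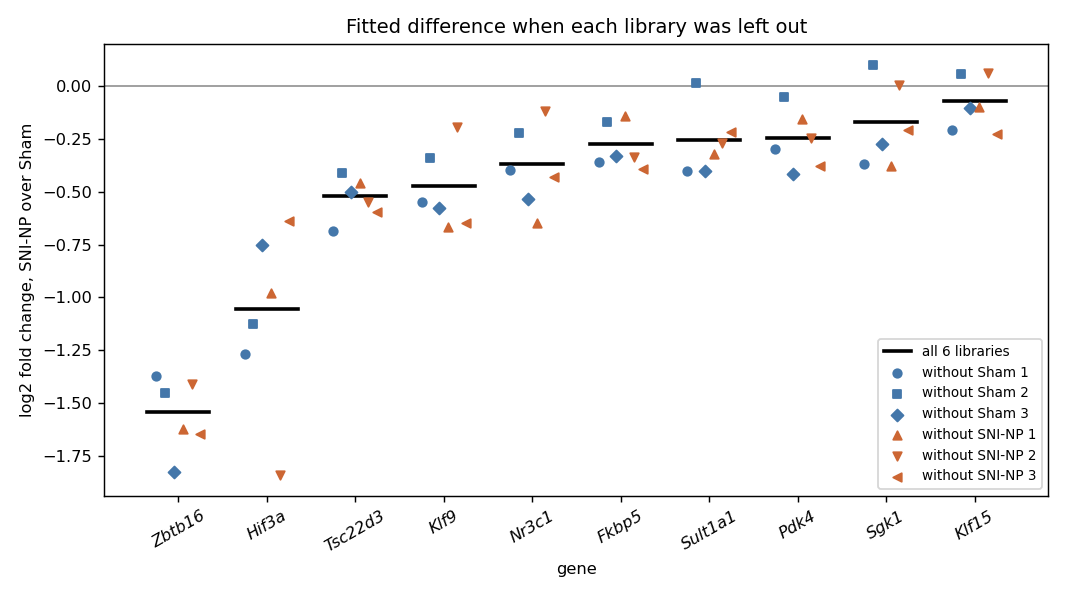
Fitted log2 fold change of SNI-NP over Sham (vertical axis) for each gene with all 6 libraries (black bar) and with each library left out (blue, a Sham library; orange, an SNI-NP library). Sgk1, Klf15 and Sult1a1 cross 0 when Sham replicate 2 is left out, Sgk1 and Klf15 also without SNI-NP replicate 2, and the other 7 genes stay below 0 in each of the 6 fits.

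Further genes known to be induced by glucocorticoids were split in direction. Of 46 listed symbols, with old and new ones for renamed genes, 44 were in the table and 42 were tested. Their log2 fold changes split into 21 negative and 21 positive values with a median of -0.0031. At an unadjusted p below 0.05 by edgeR 2 were lower and 3 were higher, beside 5.94% and 4.91% of all tested genes, and none passed at an adjusted p. DESeq2 called 5 at an unadjusted p, beside 11.7% of all genes, and 1, Mt1, at an adjusted p. Bcl6, a transcriptional repressor, was at 21.3 ± 1.29 CPM in Sham and 15.0 ± 1.68 CPM in SNI-NP, with an edgeR log2 fold change of -0.50 (SE 0.13, adjusted p = 0.352). The metallothionein genes, which encode metal-binding proteins, went in opposite directions. Mt1 was at 8.72 ± 1.94 CPM in Sham and 18.1 ± 4.81 CPM in SNI-NP (edgeR log2 fold change 1.05, SE 0.25, adjusted p = 0.335), and Mt2A at 14.4 ± 2.58 and 9.45 ± 0.478 CPM (edgeR log2 fold change -0.61, SE 0.17, adjusted p = 0.389). Their sum was 23.1 ± 4.51 and 27.5 ± 4.62 CPM, with overlapping ranges, and reads shared between such similar genes can be divided differently. The unadjusted call of Mt2A was lost with length offsets, with and without the replicate block, while that of Mt1 was kept. Gadd45g, a gene of the growth arrest response, and Rasd1, a small GTPase first found as dexamethasone-induced, had edgeR log2 fold changes of 0.58 (SE 0.20) and 0.71 (SE 0.26), each with an adjusted p of 0.436. With 1 library left out the unadjusted call of Gadd45g was lost in 2 of 6 fits and that of Rasd1 in 4 of 6, and the latter was lost with the replicate block as well. Per1, a target of both the receptor and the clock, was at 32.5 ± 13.3 and 35.9 ± 15.4 CPM and was named after its value was seen.

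Of the genes that hold the receptor or handle its hormone, Hsp90aa1 had the largest log2 fold change. Of 26 listed genes 24 were tested, 17 with a negative and 7 with a positive log2 fold change and a median of -0.04. At an unadjusted p below 0.05 by edgeR 2 were lower and 1 was higher, beside 5.94% and 4.91% of all tested genes, and 0 passed at an adjusted p. DESeq2 called 3 at an unadjusted p and 1, Hsp90aa1, at an adjusted p, beside 11.7% and 1.48% of all genes. Hsp90aa1, the stress-inducible Hsp90 that holds the receptor ready for hormone, was at 571.8, 623.6 and 544.7 CPM in Sham and at 291.8, 194.8 and 224.6 CPM in SNI-NP. The groups lay far apart, and the edgeR log2 fold change was -1.29 (SE 0.16, adjusted p = 0.117). Its counts were not whole in 2 libraries, in which a near copy, LOC103692716, also had counts. The sum of both rows was 598.4 ± 25.9 CPM in Sham and 244.0 ± 61.1 CPM in SNI-NP. Hsp90ab1, the constitutive Hsp90, also named after its value was seen, was at 1849 ± 109 and 1736 ± 211 CPM with a log2 fold change of -0.09 (SE 0.13). Hsd11b1, the enzyme that regenerates active glucocorticoid inside cells, was at 13.2 ± 3.11 CPM in Sham and 8.14 ± 0.554 CPM in SNI-NP, and its edgeR log2 fold change was -0.70 (SE 0.20, adjusted p = 0.396). None of its 6 counts was whole. Hsd11b2, which inactivates the hormone, was at 2.65 ± 0.435 and 3.05 ± 0.970 CPM, and was named after its value was seen. Por, the cytochrome P450 reductase, was at 110.0 ± 8.92 and 139.6 ± 20.2 CPM (edgeR log2 fold change 0.34, SE 0.13, adjusted p = 0.442). Its unadjusted call was lost in 4 of 6 fits with 1 library left out, among them the one that omitted SNI-NP replicate 1.

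Of 21 genes that glucocorticoids repress, most of them genes of inflammation, 12 were abundant enough to be tested. The 12 included Crh and Pomc, hormone genes of the hypothalamus and pituitary, with log2 fold changes of 0.27 (SE 1.32) and 0.37 (SE 0.31). Of the 12 genes, 4 had a negative and 8 a positive log2 fold change, with a median of 0.25. By edgeR 1 was lower at an unadjusted p below 0.05 and 0 were higher, beside 5.94% and 4.91% of all tested genes, and 0 passed at an adjusted p. DESeq2 called 1 at an unadjusted p and 0 at an adjusted p, beside 11.7% and 1.48% of all genes. The gene that was lower, Ptgs2, encodes the inducible cyclooxygenase and was at 4.32, 2.93 and 3.96 CPM in Sham and 2.65, 1.0 and 1.04 CPM in SNI-NP (edgeR log2 fold change -1.25, SE 0.43, adjusted p = 0.436). Its unadjusted call was lost on leaving out Sham replicate 1, SNI-NP replicate 2 or SNI-NP replicate 3. Vcam1 and Icam1, adhesion molecules and the most abundant of the list, had log2 fold changes of -0.02 (SE 0.16) and 0.23 (SE 0.18). Tnf had 0 counts in all 6 libraries, which allows at most 0.18 CPM in the shallowest one.

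Clock genes, which are set by the time of day and in part by glucocorticoids, included the largest fold change named here. Of 16 listed symbols, which include an old and a new name of 1 gene (Arntl and Bmal1), 15 were tested. The list shares Per1 and Per2 with the induced genes above. At an unadjusted p below 0.05 by edgeR 5 were higher and 2 were lower, beside 4.91% and 5.94% of all tested genes, and 0 passed at an adjusted p. DESeq2 called 9 at an unadjusted p and 3 at an adjusted p, namely Nr1d1, Dbp and Cry1, beside 11.7% and 1.48% of all genes. Nr1d1, the repressor REV-ERB alpha, was at 23.6, 10.5 and 22.8 CPM in Sham and at 87.0, 80.8 and 102.8 CPM in SNI-NP, with an edgeR log2 fold change of 2.25 (SE 0.30, adjusted p = 0.141). All SNI-NP libraries were far above all Sham libraries, and none of the 6 counts of Nr1d1 was whole. Dbp, an output activator of the clock, was at 37.0 ± 7.57 and 83.7 ± 11.6 CPM, with an edgeR log2 fold change of 1.18 (SE 0.18, adjusted p = 0.185). Cry1, a core repressor, was at 21.9 ± 2.48 and 12.5 ± 1.74 CPM (edgeR log2 fold change -0.81, SE 0.16, adjusted p = 0.294). Per3 was at 22.6 ± 1.20 and 30.9 ± 3.40 CPM (edgeR log2 fold change 0.45, SE 0.12, adjusted p = 0.372). Plasma glucocorticoid also follows a daily rhythm. The sources used here do not give the hour at which tissue was taken, and its part in the levels of the 10 genes was not tested.

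**Figure D5:**
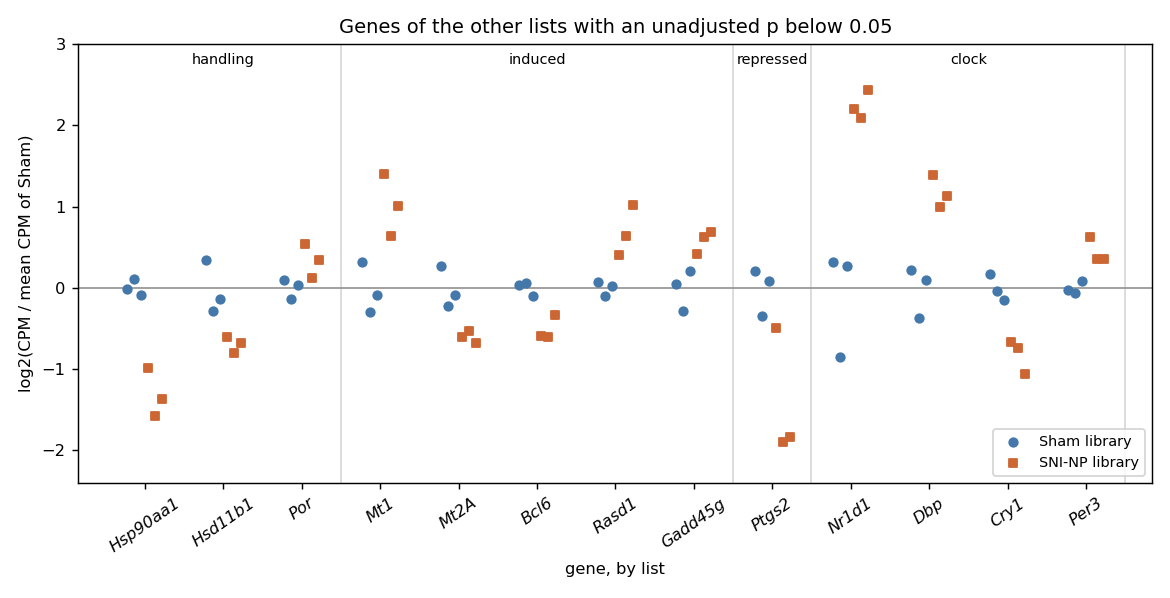
Level of the 13 genes of the 4 further lists that were named for an unadjusted p below 0.05 (of the clock genes, the 4 with the smallest p), in each library, as log2 of CPM over the mean CPM of Sham (vertical axis), with Sham libraries as blue circles and SNI-NP libraries as orange squares. Hsp90aa1, Hsd11b1, Mt2A, Bcl6, Ptgs2 and Cry1 have all SNI-NP points below all Sham points, and the other 7 genes have them above; they were drawn because they were called, so their separation is no separate result.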

How the data were processed

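Bulk RNA-seq of spinal cord in 3 Sham and 3 SNI-NP libraries was used, with groups and replicate numbers from the sample labels. The authors mapped the reads to the genome they call Rat6 and kept unique sequences. Their processing notes name FastQC, STAR and HTSeq with no role or version, and the use of strand is not given in the sources used here. The deposited table holds, per the file headers, an estimated count per gene and library without normalization, and an FPKM value. It holds no column of the authors' own comparisons. Of the 22050 genes, 2018 had a count that was not whole, among them 0 of the 10.

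The deposited counts were rounded first. Genes were kept by filterByExpr of edgeR (version 4.0.16, R 4.3.3), scaled by TMM and compared by the quasi-likelihood test with group as the only term, and p-values were adjusted by Benjamini-Hochberg over 14426 genes. The printed CPM were scaled to the library total of the tested genes times the TMM factor of that library. The SE is the fitted log2 fold change over the square root of F. The common biological coefficient of variation was 0.223. No 2 libraries were near-identical.

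On simulated data with 200 changed genes of 14337, edgeR recovered 97.5% at a log2 fold change of 2, and of 14328 genes 47.5% at a log2 fold change of 1, for SNI-NP against Sham with 3 libraries each. Of the genes it called, 2.99% and 8.65% were unchanged ones. DESeq2 recovered 94.0% and 49.5%, and 6.93% and 13.9% of the genes it called were unchanged ones. Every simulated gene had the common coefficient of variation and no library stood apart, so these shares are not those of the real libraries.

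The 10 genes and all lists were chosen with earlier results of these data known. Named were the 10 genes, in each list the genes with an unadjusted p below 0.05 and the most abundant up to 3, at most 4 clock genes, Jmjd1c and Socs3, and 5 genes most like Fkbp5, Klf15 and Nr3c1 each. Other names were chosen after their values were seen. Alternatives were DESeq2 version 1.42.0, RLE and upper-quartile factors, no filter, at least 10 counts in every library, a replicate block, loess length offsets (span 0.5) with and without the block, FPKM with pseudocounts of 0.1 and 1, and leaving out each library. Symbols of the lists that were not found in the table, some of them other names of a gene that was found, are not analysed here. GC content was not corrected for.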

Additional observations from a re-analysis of the deposited data

How the results depend on the processing

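The count of the 10 genes with an unadjusted p below 0.05 was 2 under every alternative with all libraries, and 2 to 3 when each library was left out, with Nr3c1 added without SNI-NP replicate 1 and Hif3a without SNI-NP replicate 2. Hif3a was not tested under a minimum of 10 counts. With length offsets and all libraries the log2 fold change was -0.25 for Nr3c1 and -0.19 for Fkbp5, against -0.37 and -0.28 without offsets. With 1 library left out, the log2 fold change of Sgk1 ran from -0.38 to 0.10, that of Klf15 from -0.23 to 0.064 and that of Sult1a1 from -0.40 to 0.015, with positive values without Sham replicate 2 (Sgk1, Klf15 and Sult1a1) or SNI-NP replicate 2 (Sgk1 and Klf15). The labels do not say whether replicate numbers pair the samples. The deviations of libraries with the same number had r of 0.26, -0.18 and 0.11, and those with different numbers had r from -0.35 to 0.30. Deviations from a mean of 3 libraries depend on each other, so these values cannot decide whether the samples were paired. With the replicate block 2 of the 10 genes and 2 repressed genes (1 without it) had an unadjusted p below 0.05, as did 2 repressed genes with length offsets and the block, and the block moved no other count beyond 1.5 times on its own. Induced genes numbered 3 with length offsets and the block (5 without), and 4 to 6 without 1 library. Handling genes numbered 5 with length offsets (3 without), and 2 to 5 without 1 library, the 5 without SNI-NP replicate 2 and the 2 without Sham replicate 3. Repressed genes numbered 0 to 2 without 1 library, with 0 on leaving out Sham replicate 1 or SNI-NP replicate 2. The count was 2 with SNI-NP replicate 1 omitted, and likewise with Sham replicate 2 or 3 omitted. Over all genes DESeq2 called 210 at an adjusted p below 0.05, 59 higher and 151 lower, against 0 by edgeR, which called 857 lower and 708 higher at an unadjusted p. Leaving out 1 library gave 0 to 222, with 222 without SNI-NP replicate 1 and 2 without Sham replicate 2. The cause of these changes was not tested. Low counts left 9 of the 21 repressed genes untested.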
